A study of Mus musculus with 8 samples.

Results

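The oxidative phosphorylation genes described here were chosen by name from the deposited gene table. Nuclear members have a symbol of the Nduf, Sdh, Uqcr, Cox4 to Cox8 or Atp5 series, and mitochondrially encoded members have a symbol that starts with mt-. The rule found 101 of 16096 genes, of which 85 are nuclear and 16 are mitochondrially encoded. The mitochondrial members are 7 mRNAs, 2 rRNAs and 7 tRNAs, and the rRNAs and tRNAs are described apart from the mRNAs. The 7 mRNAs belong to 7 of the 13 mitochondrial protein genes annotated in GENCODE M21. The others are not analysed here, and every sum of mitochondrial mRNAs covers these 7 alone. The rule uses gene names and no measured value.

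The libraries were made from total RNA of peripheral retina dissected at embryonic day 16.5 from C57BL/6 mouse embryos. The 4 libraries labelled cKO came from Pax6alpha-Cre:Ezh2fl/null embryos and the 4 control libraries from Pax6alpha-Cre:Ezh2fl/+ embryos. Both groups therefore carry the Cre transgene, which acts in the peripheral retina, and a floxed allele of Ezh2, the methyltransferase of Polycomb repressive complex 2. Cells in which Cre was not active carry a null allele in the labelled-cKO embryos only. Neither the litter nor the number of embryos behind a library is given, and each p-value therefore reflects only the spread among the sampled libraries, which may be technical. In bulk tissue, fewer cells of a type and less RNA per cell cannot be told apart.

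The libraries held 13994825 to 18391647 counts each. Ezh2, the targeted gene, averaged 250.7 ± 23.1 counts per 1e6 (CPM) in the libraries labelled cKO and 217.2 ± 18.1 CPM in control libraries (SD, n = 4 each), and the groups overlapped (Benjamini-Hochberg adjusted p = 0.0701 by edgeR's quasi-likelihood test). A count over the whole gene does not check whether the floxed exons were deleted, and nothing in the values checked the genotype labels. Sex-linked transcripts marked labelled-cKO replicates 2 and 3 as female and the other 6 libraries as male. Of 8 retinal markers, all were detected, and their summed level was 1972 to 2043 CPM in the libraries labelled cKO and 2137 to 2161 CPM in control libraries. Lens crystallins were highest in labelled-cKO replicate 2, at 7.10 CPM, and in control replicate 1, at 11.1 CPM, against 0.982 to 1.48 CPM in the other libraries. Erythroid markers ranged from 91.3 to 871.1 CPM in the libraries labelled cKO and from 160.5 to 1289 CPM in control libraries.

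Oxidative phosphorylation is the set of reactions of the inner mitochondrial membrane that passes electrons from NADH and succinate to oxygen and uses the resulting proton gradient to make ATP. Complexes I, III and IV pump protons, complex II feeds electrons in from the tricarboxylic acid cycle without pumping, and complex V is the ATP synthase. Complexes I, III, IV and V are built from subunits of both genomes, and complex II is wholly nuclear. The mitochondrial genome is transcribed as long polycistronic RNAs from which tRNAs are cut out, and its rRNAs build the mitochondrial ribosome.

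All 85 nuclear members passed the filter on low counts and 2 of them changed, both of complex IV. Cox4i2 fell and Cox6b2 rose in the libraries labelled cKO, and the other 83 did not pass the test. The test was edgeR's quasi-likelihood test on all 15014 genes that passed the filter, with a Benjamini-Hochberg adjusted p under 0.05 as the call. Of all genes tested, 11.8% were called, with 8.35% higher and 3.46% lower in the libraries labelled cKO. At an unadjusted p under 0.05 by edgeR there were 5 nuclear members, Cox4i2, Cox6b2, Ndufv2, Ndufa4 and Ndufb3. The share of all genes at that unadjusted p is not given, here or for the lists below. DESeq2 called the same 2 genes and had 3 members at an unadjusted p under 0.05, Cox4i2, Cox6b2 and Ndufv2.

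The median log2 fold change of the 85 nuclear members was 0.033 and its quartiles were -0.01 and 0.06. Over all genes tested the median was -0.007 and the quartiles were -0.09 and 0.10. The fold change was positive for 58 of 85 members, or 68.2%, beside 47.6% of all genes. This direction depended on the libraries used. The median was -0.028 with the 6 male libraries alone and -0.028 with sex as a covariate. It was -0.01 without the 2 libraries with the most lens crystallin, and 0.01 to 0.055 when 1 library at a time was left out. Both female libraries are labelled cKO, so an effect of sex cannot be told apart from other traits of these 2 libraries. Without Cox4i2 and Cox6b2 the fold changes of the other 83 members ran from -0.17 to 0.18.

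The 95% limits of the fold change lay within 1.25-fold of no change, in both directions, for 77 of 85 nuclear members, and within 1.5-fold for 81. Over all genes tested, 57.8% lay within 1.25-fold and 79.9% within 1.5-fold. Members are mostly well counted, so the comparison was repeated at a like level. Among the 4529 genes with a mean of 24.8 to 83.0 CPM, the middle 2 quartiles of the members, 84.4% had limits within 1.25-fold and 9.65% were called. Of the 43 members in that range, 97.7% had limits within 1.25-fold and 1 was called, Cox4i2.

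**Figure D1:**
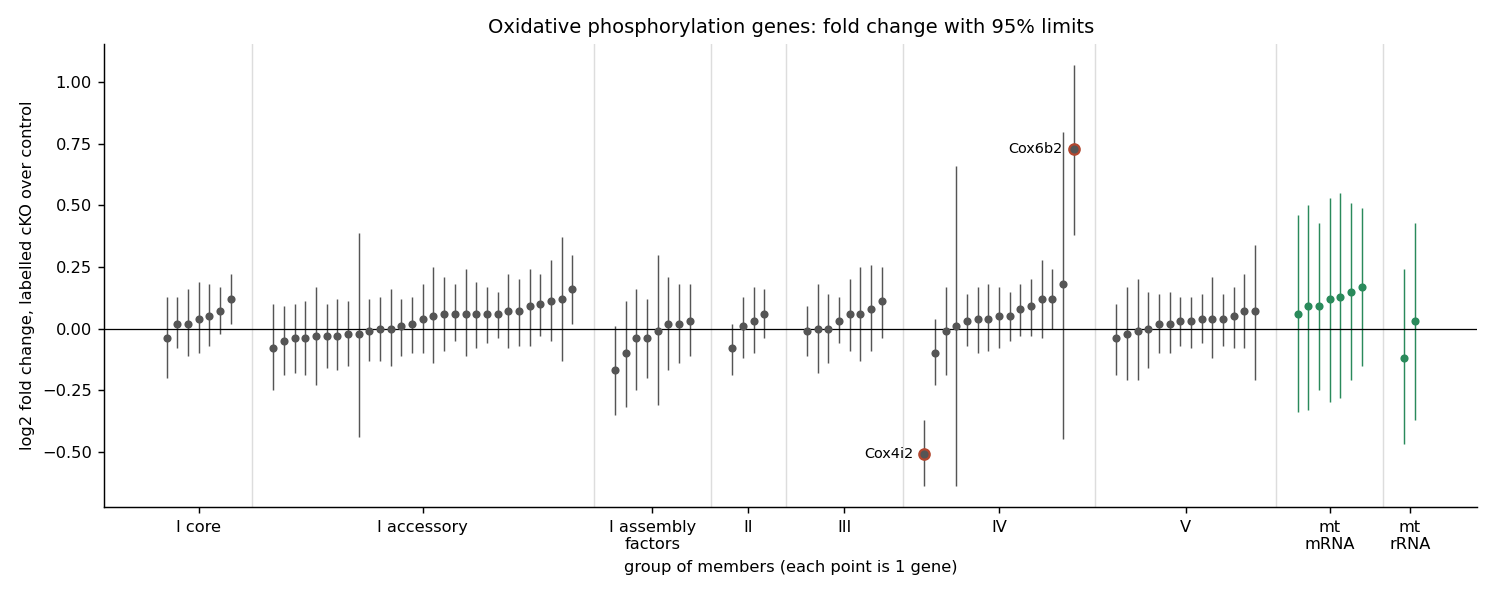
Log2 fold change of each tested nuclear member, mitochondrial mRNA and mitochondrial rRNA (vertical axis, labelled cKO over control, 4 libraries each), ordered by value within each complex (horizontal axis). Bars are 95% limits from edgeR's quasi-likelihood test, and larger red points mark called genes. Cox4i2 at -0.51 and Cox6b2 at 0.73 stand apart from the nuclear members, which otherwise lie between -0.17 and 0.18, and the mitochondrial mRNAs have wider limits.

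Summed over the 85 nuclear members, the libraries labelled cKO held 6522, 6874, 6915 and 6329 CPM, and the control libraries 6296, 6659, 6637 and 6586 CPM. The groups overlapped, and the lowest value of all was in control replicate 1. The means were 6660.0 ± 282.5 CPM in the libraries labelled cKO and 6545 ± 168.2 CPM in control libraries (SD, n = 4 each), a ratio of 1.02. With the 6 male libraries alone the log2 ratio of the means was -0.026, beside 0.025 with all 8.

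Per length of the gene model, the deposited FPKM gives an order of levels among members. The order rests on the authors' gene lengths, which depart from the summed exon length of GENCODE M21 for some members. Ndufa4 and Cox8a had summed exon lengths of 1381 and 619 bases but similar CPM and similar FPKM. Their CPM averaged 83.5 and 86.2 in the libraries labelled cKO and 76.7 and 81.3 in control libraries. The order was not recomputed with the summed exon lengths. The highest nuclear member was Cox6b1, a complex IV subunit that faces the intermembrane space, with 294.0 ± 15.4 FPKM in the libraries labelled cKO and 279.1 ± 22.7 FPKM in control libraries (SD, n = 4 each). Atp5a1, the α subunit of the ATP synthase, followed with 283.0 ± 9.79 FPKM in the libraries labelled cKO and 274.5 ± 16.2 FPKM in control libraries, and these top levels did not differ beyond their spread. Next came Atp5b, the catalytic β subunit, with 220.3 ± 5.27 FPKM in the libraries labelled cKO and 214.1 ± 14.2 FPKM in control libraries. Ndufa4 and Cox8a, both complex IV subunits, had means of 170.8 and 159.4 FPKM in the libraries labelled cKO and 154.6 and 147.9 FPKM in control libraries.

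The lowest nuclear members per length were Ndufab1, the mitochondrial acyl carrier protein, Atp5g1, an ATP synthase c-ring subunit, and Cox7c, a complex IV subunit. Their mean FPKM in the libraries labelled cKO was 1.38, 1.43 and 1.59, and in control libraries 1.39, 1.41 and 1.56. The gene models of Ndufab1 and Atp5g1 are long, with summed exon lengths of 6883 and 4912 bases, beside 1131 for Cox7c. By CPM Ndufab1 was not among the lowest, with 9.41 in the libraries labelled cKO and 9.64 in control libraries. Cox6b2, for example, had 3.92 CPM in the libraries labelled cKO and 2.35 CPM in control libraries. The sources used here do not say how reads shared with other loci were treated, and the part of such reads in these low levels was not tested. Cox7c held only 10 to 39 counts per library and its 95% limits ran from -0.64 to 0.66.

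**Figure D2:**
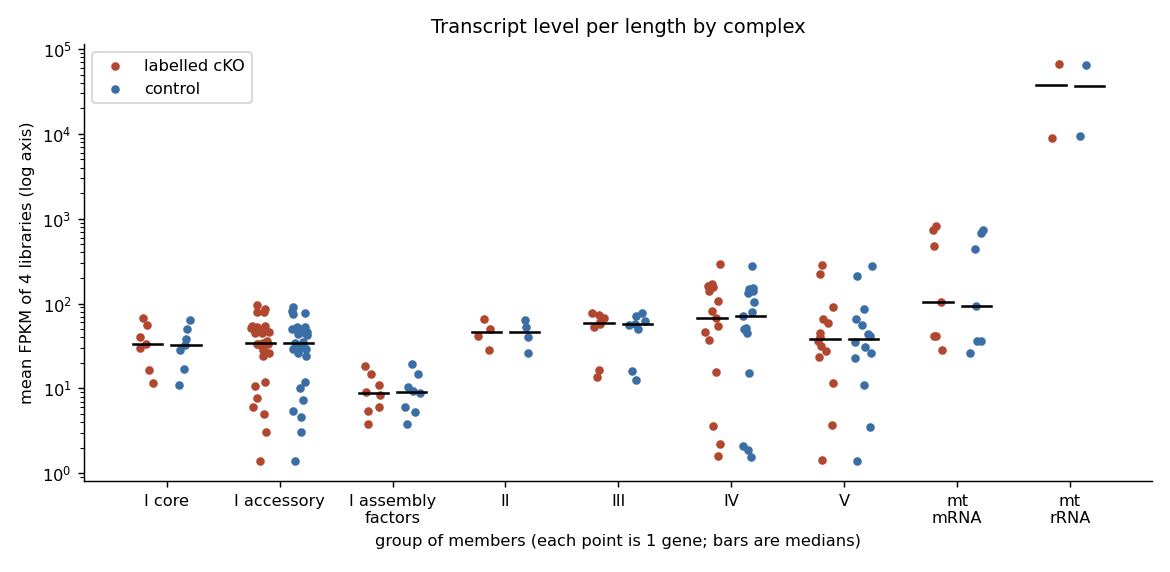
Mean FPKM of each member over 4 libraries (vertical log axis) by complex (horizontal axis), labelled cKO left of control within each group; horizontal bars are medians over genes. The medians of both groups lie close together in each complex, those of the complex I assembly factors are lowest, and the rRNAs lie far above every mRNA.

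Complex I was represented by 7 core subunits, which carry the redox centres, by 29 accessory subunits and by 8 assembly factors. None of these genes was called by edgeR or DESeq2, and 2 had an unadjusted p under 0.05 with edgeR, Ndufv2 and Ndufb3. The core subunits summed to 538.0 ± 22.9 CPM in the libraries labelled cKO and 518.4 ± 8.65 CPM in control libraries (SD, n = 4 each), with 6 of 7 fold changes positive. Ndufv2, an iron-sulfur subunit of the NADH-oxidising module, had 111.6, 111.2, 110.0 and 105.6 CPM in the libraries labelled cKO and 100.2, 100.1, 95.5 and 107.7 CPM in control libraries. Control replicate 4 lay within the range of the labelled-cKO libraries, and the fold change of 0.12 (SE 0.05, 95% limits 0.02 to 0.22) had an edgeR Benjamini-Hochberg adjusted p of 0.123.

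The accessory subunits summed to 1279 ± 59.2 CPM in the libraries labelled cKO and 1250.3 ± 33.7 CPM in control libraries (SD, n = 4 each). Their fold changes ran from -0.08 to 0.16 and 19 of 29 were positive. The highest was that of Ndufb3, a subunit of the membrane arm, with 24.1, 26.2, 25.3 and 24.5 CPM in the libraries labelled cKO and 21.2, 23.6, 20.8 and 23.6 CPM in control libraries. Every labelled-cKO library lay above every control library, the closest at 24.1 and 23.6 CPM, and the edgeR Benjamini-Hochberg adjusted p was 0.138. Of the nuclear members only Ndufb3, Cox4i2 and Cox6b2, 3 of 85, had groups that did not overlap, beside 16.3% of all genes tested.

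The assembly factors summed to 130.4 ± 5.46 CPM in the libraries labelled cKO and 133.4 ± 5.79 CPM in control libraries (SD, n = 4 each), with 3 of 8 fold changes positive. Ndufaf7, a methyltransferase needed for the assembly of complex I, had 19.5, 18, 20.8 and 18 CPM in the libraries labelled cKO and 21.9, 23.1, 18 and 22.8 CPM in control libraries. Control replicate 3 was as low as the lowest labelled-cKO libraries, and the fold change of -0.17 (SE 0.09) had an edgeR Benjamini-Hochberg adjusted p of 0.244. Ndufaf2, a late assembly factor, had a fold change of -0.10 (SE 0.10, edgeR adjusted p = 0.607).

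Complex II has 4 subunits, and none was called by edgeR or DESeq2 or had an unadjusted p under 0.05. They summed to 461.2 ± 16.9 CPM in the libraries labelled cKO and 466.4 ± 15.5 CPM in control libraries (SD, n = 4 each). Sdha, the flavoprotein that oxidises succinate, had a fold change of -0.08 (SE 0.05, edgeR adjusted p = 0.356), and those of Sdhb, Sdhc and Sdhd lay between 0.01 and 0.06. For all 4 genes the 95% limits lay within 1.25-fold.

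Complex III was represented by 8 nuclear members, which summed to 581.8 ± 32.5 CPM in the libraries labelled cKO and 570.2 ± 13.8 CPM in control libraries (SD, n = 4 each). Fold changes ran from -0.01 for the core protein Uqcrc1 to 0.11 for Uqcrq, a small ubiquinone-binding subunit, and all 8 had limits within 1.25-fold. Neither edgeR nor DESeq2 called a member of complex III or V, and none had an unadjusted p under 0.05. The ATP synthase members numbered 14, with sums of 2633 ± 107.1 CPM in the libraries labelled cKO and 2594 ± 96.2 CPM in control libraries and fold changes of -0.04 to 0.07. Atp5g1 and Atp5g3 encode the same mature c subunit behind different import sequences. Atp5g1 averaged 6.97 ± 0.407 CPM in the libraries labelled cKO and 6.99 ± 0.214 CPM in control libraries, and Atp5g3 averaged 98.6 ± 3.84 CPM in the libraries labelled cKO and 96.7 ± 2.86 CPM in control libraries.

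Complex IV, cytochrome c oxidase, held both called genes. Its 15 members summed to 1037 ± 45.4 CPM in the libraries labelled cKO and 1012 ± 22.7 CPM in control libraries (SD, n = 4 each), and 12 of 15 fold changes were positive. Several of its nuclear subunits come as pairs of isoforms from separate genes. Cox4i1 is the general isoform of subunit 4, and Cox4i2 is known from lung and for its induction by low oxygen in cultured cells. Cox6b1 is the general isoform of subunit 6b and Cox6b2 is known as the testis isoform.

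The isoforms of each pair differ in sequence, which bears on whether reads can be assigned to a single isoform, and 90 coding bases of each are shown with the longest run shared between isoforms in capitals (GENCODE M21 transcripts, mm10; Cox4i2 on chromosome 2, Cox4i1 on chromosome 8, Cox6b2 and Cox6b1 on chromosome 7). 
Cox4i2, coding bases 266 to 355: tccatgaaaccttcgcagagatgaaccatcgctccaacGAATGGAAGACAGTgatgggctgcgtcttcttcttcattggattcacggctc
Cox4i1, coding bases 257 to 346: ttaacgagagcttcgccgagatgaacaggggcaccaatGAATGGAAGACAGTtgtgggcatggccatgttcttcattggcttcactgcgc
Cox6b2, coding bases 35 to 124: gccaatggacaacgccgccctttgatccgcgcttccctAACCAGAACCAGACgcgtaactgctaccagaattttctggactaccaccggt
Cox6b1, coding bases 29 to 118: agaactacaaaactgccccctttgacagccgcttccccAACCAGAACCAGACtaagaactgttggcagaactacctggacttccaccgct
Over the whole coding sequence, 70.5% of the 485 aligned bases of Cox4i2 and Cox4i1 were identical, and 66.3% of the 255 aligned bases of Cox6b2 and Cox6b1. The longest identical run was 14 bases in both pairs.

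Cox4i2 (mm10, chromosome 2, 152754173 to 152765037, plus strand) had 30.4, 25.9, 29.3 and 31.1 CPM in the libraries labelled cKO and 42.9, 41.9, 40.7 and 40.5 CPM in control libraries. Every labelled-cKO library lay well below every control library. The means were 29.2 ± 2.30 CPM in the libraries labelled cKO and 41.5 ± 1.10 CPM in control libraries (SD, n = 4 each), a log2 fold change of -0.51 (SE 0.06, 95% limits -0.64 to -0.37, edgeR Benjamini-Hochberg adjusted p = 6e-05). The exact two-sided permutation test over the 8 libraries gave p = 0.0286, the smallest that 70 assignments allow. Any gene whose groups do not overlap gets this value, and 16.3% of all genes tested had such groups. It therefore adds nothing to the lack of overlap. Cox4i2 passed the test under each of the 18 alternatives tried, with fold changes of -0.54 to -0.43.

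Cox4i1 had 208.8, 231.5, 225.9 and 193.7 CPM in the libraries labelled cKO and 195.7, 212.6, 219.1 and 205.1 CPM in control libraries, and the groups overlapped. Its exons overlap those of Emc8, and the sources used here do not say whether strand was used in counting. Per length, Cox4i2 stood at 0.286, 0.220, 0.255 and 0.316 of Cox4i1 in the libraries labelled cKO and at 0.431, 0.388, 0.366 and 0.389 in control libraries. The ratio of FPKM did not overlap between groups, with means of 0.269 ± 0.0411 in the libraries labelled cKO and 0.393 ± 0.0273 in control libraries (SD, n = 4 each).

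Cox6b2 (mm10, chromosome 7, 4751792 to 4753094, minus strand) was a low transcript, with 53 to 73 counts per library labelled cKO and 25 to 50 counts per control library. It had 3.92, 3.69, 4.13 and 3.95 CPM in the libraries labelled cKO and 2.10, 2.75, 1.75 and 2.78 CPM in control libraries. Every labelled-cKO library lay above every control library, and the control libraries fell into a lower pair, replicates 1 and 3, and a higher pair, replicates 2 and 4. The means were 3.92 ± 0.182 CPM in the libraries labelled cKO and 2.35 ± 0.506 CPM in control libraries (SD, n = 4 each), a log2 fold change of 0.73 (SE 0.16, 95% limits 0.38 to 1.07, edgeR Benjamini-Hochberg adjusted p = 0.00706; exact two-sided permutation p = 0.0286). The lower control pair was also the pair with the larger share of mitochondrial rRNA, 13.7 and 13.5% of counts, and with that share as a covariate the fold change was 0.80 (edgeR adjusted p = 0.00204). It passed the test under each of the 18 alternatives, with fold changes of 0.61 to 0.83 and adjusted p-values of 0.00204 to 0.0487.

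Cox6b1 averaged 147.4 ± 7.67 CPM in the libraries labelled cKO and 142.0 ± 5.42 CPM in control libraries (SD, n = 4 each). Per length, Cox6b2 was 0.0122 ± 0.000765 of Cox6b1 in the libraries labelled cKO and 0.00749 ± 0.00135 in control libraries, so the testis isoform was a small part of the pair in both groups. Of the 2 called genes, Cox6b2 contributed 3.57 FPKM in the libraries labelled cKO and 2.11 FPKM in control libraries, and Cox4i2 37.3 FPKM in the libraries labelled cKO and 52.2 FPKM in control libraries.

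**Figure D3:**
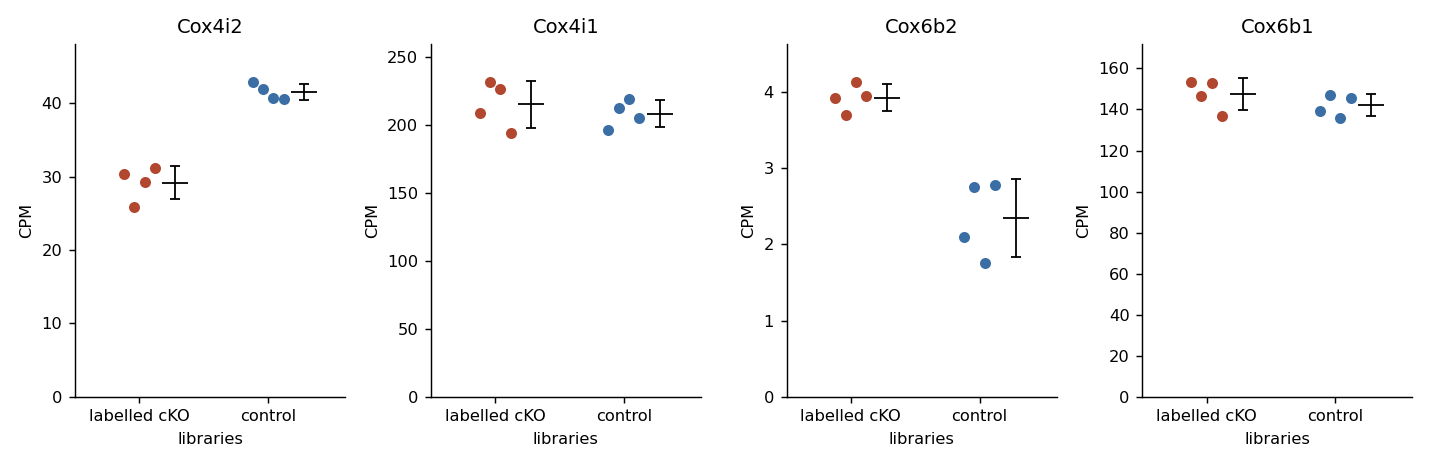
CPM in each library (points) with mean and SD (black bars) for the isoform pairs Cox4i2 and Cox4i1, and Cox6b2 and Cox6b1, labelled cKO left of control, n = 4 each. The groups separate for Cox4i2 (25.9 to 31.1 CPM in the libraries labelled cKO, 40.5 to 42.9 CPM in control libraries) and Cox6b2 (3.69 to 4.13 CPM in the libraries labelled cKO, 1.75 to 2.78 CPM in control libraries) and overlap for Cox4i1 and Cox6b1.

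The other isoform families of complex IV did not pass the test. Cox6a1, the general isoform of subunit 6a, averaged 108.3 ± 12.5 CPM in the libraries labelled cKO and 99.6 ± 7.16 CPM in control libraries (edgeR adjusted p = 0.387), and was called only when labelled-cKO replicate 1 was left out, with a fold change of 0.20 (adjusted p = 0.0435). Cox7a1, the isoform of heart and skeletal muscle, was near the limit of detection, with 10 to 17 counts per library labelled cKO and 9 to 14 counts per control library. Cox7a2, its general counterpart, averaged 80.4 ± 4.53 CPM in the libraries labelled cKO and 78.4 ± 6.06 CPM in control libraries. Cox7a2l, which takes part in joining complexes III and IV into supercomplexes, averaged 77.2 ± 4.43 CPM in the libraries labelled cKO and 82.6 ± 6.38 CPM in control libraries, with a fold change of -0.10 (SE 0.06). Ndufa4, first assigned to complex I and now to complex IV, had a fold change of 0.12 (edgeR adjusted p = 0.193), and those of Cox7b and Cox8a were 0.08 and 0.09.

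Cox4i2 is also known as a transcript of pericytes, so the vascular markers were read beside it. The 5 endothelial markers in the table summed to 271.4 to 309.6 CPM in the libraries labelled cKO and 322.3 to 351.8 CPM in control libraries, without overlap. Nearly all of this sum was Kdr, at 281.0 ± 17.2 CPM in the libraries labelled cKO and 331.8 ± 13 CPM in control libraries, whereas Pecam1 averaged 0.597 CPM in the libraries labelled cKO and 0.524 CPM in control libraries, and Cdh5 0.474 CPM in the libraries labelled cKO and 0.322 CPM in control libraries. Kdr fell, with a fold change of -0.24, and Cldn5 rose, with one of 0.43. None of the 5 was at 0 in all libraries. A list of 10 pericyte markers was added after the fall of Cox4i2 had been seen.

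The 8 pericyte markers in the table summed to 52.1 to 69.2 CPM in the libraries labelled cKO and 54.1 to 58.7 CPM in control libraries, which overlapped. Rgs5, a defining pericyte marker, averaged 0.570 ± 0.667 CPM in the libraries labelled cKO and 0.202 ± 0.149 CPM in control libraries (SD, n = 4 each). Pdgfrb averaged 13.7 ± 3.31 CPM in the libraries labelled cKO and 15.7 ± 2.04 CPM in control libraries (edgeR adjusted p = 0.444), and edgeR called Cspg4 and Vtn higher in the libraries labelled cKO, with fold changes of 0.84 and 0.53. DESeq2 kept the call of Vtn (adjusted p = 0.0208) and lost that of Cspg4 (adjusted p = 0.057). The part of vascular cells in the fall of Cox4i2 was not tested.

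Markers of microglia summed to 34.2 to 41.6 CPM in the libraries labelled cKO and 26 to 32.3 CPM in control libraries, without overlap. The summed markers of pigment epithelium, mesenchyme and skeletal muscle overlapped between groups, with sums of 11.1 to 24.2, 22.0 to 75 and 15.4 to 67.8 CPM in the libraries labelled cKO and 10.9 to 36.9, 23.7 to 50.8 and 30.9 to 40.0 CPM in control libraries. Within the mesenchyme list, Pdgfra had 12.2, 15.5, 14.1 and 14.3 CPM in the libraries labelled cKO and 6.66, 7.20, 8.14 and 5.96 CPM in control libraries. These groups did not overlap, the fold change was 1.01 (SE 0.11, edgeR adjusted p = 1.79e-05), and the other 5 tested mesenchyme markers were not called. The part of these cell types in the values of Cox4i2 and Cox6b2 was not tested.

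Promoter windows of the nuclear members were searched for 2 motifs known from genes of oxidative phosphorylation, the core of nuclear respiratory factor 1 (GCATGCGC) and an ETS core of the kind bound by GABP (CCGGAAGT), on both strands. RefSeq windows of 300 bases (GRCm38.p6), from 250 before to 50 after the start, matched 69 of the 85 members with 74 windows. GCATGCGC was in 10 of 74 windows, or 13.5%, beside 2.71% of all 32851 windows and 10.7% of 75 windows of mitochondrial ribosomal protein genes. CCGGAAGT was in 5 of 74, or 6.76%, beside 3.89% of all windows and 16% of those of the ribosomal protein genes. The first motif overlaps its own reverse complement. A match is a description of letters, and no binding was measured.

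Uqcr11, a small subunit of complex III, was the member with both motifs, shown in capitals; its fold change was 0.08. Cox6b2 was the called member with a window in the table and is shown for contrast.
Uqcr11, chr10:80406772-80407071, minus strand: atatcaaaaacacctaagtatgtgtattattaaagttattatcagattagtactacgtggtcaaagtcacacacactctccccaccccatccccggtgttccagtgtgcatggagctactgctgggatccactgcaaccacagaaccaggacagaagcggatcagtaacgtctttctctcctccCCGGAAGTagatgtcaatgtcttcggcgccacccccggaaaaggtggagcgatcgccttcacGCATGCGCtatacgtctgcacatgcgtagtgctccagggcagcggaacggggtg
Cox6b2, chr7:4753045-4753344, minus strand: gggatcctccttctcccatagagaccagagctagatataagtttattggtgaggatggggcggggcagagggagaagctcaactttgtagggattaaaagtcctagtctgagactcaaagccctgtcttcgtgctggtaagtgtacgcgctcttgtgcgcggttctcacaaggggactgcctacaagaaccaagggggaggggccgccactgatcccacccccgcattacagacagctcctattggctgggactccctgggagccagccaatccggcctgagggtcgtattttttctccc
Neither motif was in the Cox6b2 window. The 10 members with the first motif were Atp5k, Cox6a1, Ndufa11, Ndufa6, Ndufa8, Ndufaf4, Ndufaf5, Sdhb, Uqcr11 and Uqcrc1, and none of them was called.

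Of the 7 mitochondrial mRNAs none was called, none had an unadjusted p under 0.05 with edgeR or DESeq2, and the libraries of each group were far apart. Summed, they stood at 2543, 3491, 2339 and 2637 CPM in the libraries labelled cKO and at 3543, 1764, 2911 and 2070 CPM in control libraries. The highest and the lowest library of all 8 were both controls, replicates 1 and 2. The means were 2753 ± 507.9 CPM in the libraries labelled cKO and 2572 ± 808.8 CPM in control libraries (SD, n = 4 each), a coefficient of variation of 18.5% in the libraries labelled cKO and 31.4% in control libraries. For the nuclear sum it was 4.24% in the libraries labelled cKO and 2.57% in control libraries.

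All 7 fold changes were positive, from 0.06 to 0.17, with a median of 0.116. All but mt-Nd6 lie on the same strand and are read from shared polycistronic RNAs, so these are not 7 independent values. The median ran from -0.039 without control replicate 2 to 0.325 without control replicate 1, so single control libraries set its sign and size. For every mRNA the 95% limits lay within 1.5-fold but not within 1.25-fold, and the median half-width of the limits was 0.40 on the log2 scale, beside 0.14 for nuclear members. A fall of the size seen in Cox4i2 lay outside the limits of all 7 mRNAs, but a rise of 1.25-fold lay inside them. Changes of that size, smaller or somewhat larger could have been missed.

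**Figure D4:**
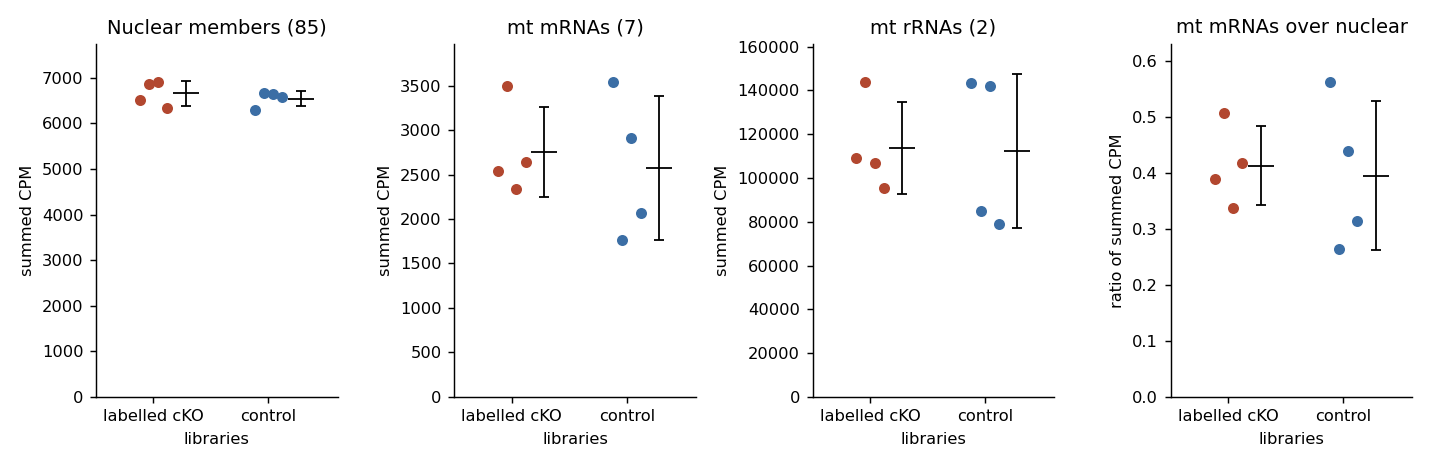
Summed CPM of nuclear members, mitochondrial mRNAs and mitochondrial rRNAs, and the ratio of the mitochondrial mRNA to the nuclear sum (vertical axes), in each library (points) with mean and SD (black bars), labelled cKO left of control, n = 4 each. Nuclear sums lie between 6296 and 6915 CPM in all libraries, whereas mitochondrial mRNA sums spread from 1764 to 3543 CPM and overlap between groups.

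By complex, the 5 mitochondrially encoded subunits of complex I that are members summed to 947.7 ± 90.7 CPM in the libraries labelled cKO and 897.2 ± 317.1 CPM in control libraries (SD, n = 4 each). Mitochondrially encoded subunits belong to the proton-pumping membrane arm of the complex. The largest share was mt-Nd1, with 647.0, 794.2, 643.0 and 692.1 CPM in the libraries labelled cKO and 935.6, 443.2, 815.7 and 472.7 CPM in control libraries. Control replicates 1 and 3 lay above all labelled-cKO libraries and control replicates 2 and 4 below all of them, and the fold change was 0.06 (SE 0.19, edgeR adjusted p = 0.896). Among the control libraries alone, the same order held for mt-Nd2, mt-Nd4 and mt-Nd5, whose fold changes were 0.13, 0.15 and 0.17. For each of these genes control replicate 3 lay within the labelled-cKO range.

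Mt-Nd6 is the sole mRNA of the light strand and lies opposite the others. It had 15.0, 15.0, 13 and 15.0 CPM in the libraries labelled cKO and 21.7, 10.1, 14 and 9.63 CPM in control libraries, the lowest level of the 7 per length as well, at 28.1 ± 1.94 FPKM in the libraries labelled cKO and 26.2 ± 9.60 FPKM in control libraries. Control replicate 1 was the highest of all libraries, and control replicate 3 lay within the labelled-cKO range. Its end overlaps that of mt-Nd5 by 14 bases on the opposite strand, shown in capitals in the last 60 bases of each gene (GENCODE M21 transcripts, mm10, mitochondrial chromosome). 
mt-Nd5, chrM:13506-13565, plus strand: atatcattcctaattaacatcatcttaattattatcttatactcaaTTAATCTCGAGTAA
mt-Nd6, chrM:13552-13611, minus strand: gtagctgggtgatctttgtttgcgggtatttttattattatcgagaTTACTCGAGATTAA
Both runs of capitals are the same positions read on opposite strands. Without strand in the counting, reads from antisense RNA of either gene cannot be told apart from reads of the other within the overlap.

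Mt-Cytb, the mitochondrially encoded subunit of complex III, had 488.2, 631.4, 470.1 and 561.3 CPM in the libraries labelled cKO and 670.5, 334.9, 576.6 and 440.4 CPM in control libraries. Mt-Co1, the catalytic subunit of complex IV, had 1172, 1806, 1006 and 1084 CPM in the libraries labelled cKO and 1617, 836.2, 1266 and 958.4 CPM in control libraries. For mt-Co1, labelled-cKO replicate 2 was the highest of all libraries, and labelled-cKO replicate 3, the other female library, was the lowest of its group. Fold changes were 0.09 (SE 0.16) for mt-Cytb and 0.12 (SE 0.19) for mt-Co1, with edgeR adjusted p of 0.804 and 0.786.

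Within a library the mitochondrial mRNAs did not keep fixed proportions. The ratio of mt-Co1 to mt-Nd1 counts was 1.81, 2.27, 1.57 and 1.57 in the libraries labelled cKO and 1.73, 1.89, 1.55 and 2.03 in control libraries, with the same mean of 1.80 in both groups. Mt-Nd2 was highest in labelled-cKO replicate 4, at 140.3 CPM, the library in which mt-Co1 was near the low end of the labelled-cKO range. Replicate 2 of that group had the reverse, with 100.6 CPM of mt-Nd2 and the highest mt-Co1.

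The ratio of the mitochondrial mRNA to the nuclear sum was 0.390, 0.508, 0.338 and 0.417 in the libraries labelled cKO and 0.563, 0.265, 0.439 and 0.314 in control libraries. The groups overlapped, and the control libraries spanned a wider range than the labelled-cKO libraries on both sides. The means were 0.413 ± 0.0710 in the libraries labelled cKO and 0.395 ± 0.133 in control libraries (SD, n = 4 each). The log2 ratio of the means, 0.064 with all libraries, ran from -0.086 without control replicate 2 to 0.284 without control replicate 1.

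Of the mitochondrial rRNAs, mt-Rnr2 encodes the large-subunit and mt-Rnr1 the small-subunit rRNA. Together they took 11.1, 14, 10.8 and 9.84% of all counts in the libraries labelled cKO and 13.7, 8.72, 13.5 and 8.19% in control libraries. Control replicates 1 and 3 were higher than control replicates 2 and 4, the same split as for mt-Nd1. Mt-Rnr2 had 100012, 135197, 98379 and 87714 CPM in the libraries labelled cKO and 131744, 77579, 130320 and 73020 CPM in control libraries, a fold change of 0.03 (SE 0.19, edgeR adjusted p = 0.949). Mt-Rnr1 averaged 8533 ± 652.2 CPM in the libraries labelled cKO and 9267 ± 2884 CPM in control libraries (SD, n = 4 each), a fold change of -0.12 (SE 0.17, edgeR adjusted p = 0.737).

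The rRNA sum was 43.0, 41.2, 45.6 and 36.2 times the mRNA sum in the libraries labelled cKO and 40.5, 48.3, 48.7 and 38.2 times in control libraries. This ratio varied less than either sum did among control libraries. Mt-Rnr2 exceeded mt-Rnr1 by 10.8, 15.4, 11.8 and 11.3 times in the libraries labelled cKO and 11.1, 10.3, 11.3 and 12 times in control libraries, with labelled-cKO replicate 2 the highest. Both rRNAs are processed from the same primary transcript. The sources used here do not say whether or how rRNA was removed from the libraries, and the cause of the difference between the 2 rRNAs was not tested.

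**Figure D5:**
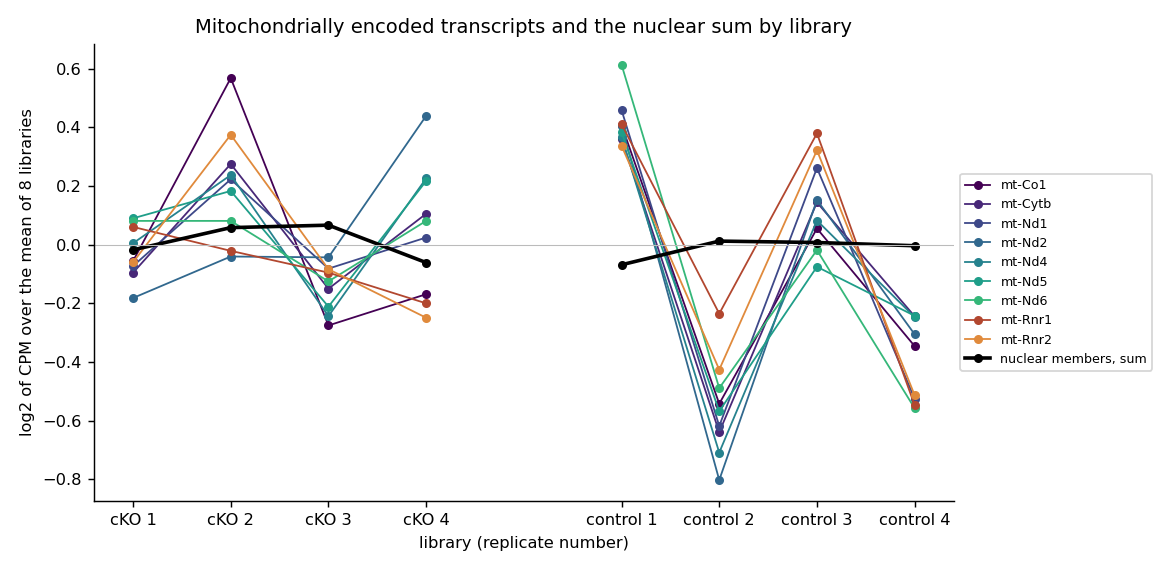
Log2 of CPM over the mean of all 8 libraries (vertical axis) for each mitochondrial mRNA and rRNA and for the sum of the nuclear members (black), by library (horizontal axis), labelled cKO left of control. For each plotted mitochondrial transcript, control replicates 1 and 3 lie above control replicates 2 and 4, while the nuclear sum stays between 6296 and 6915 CPM.

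Of the 7 mitochondrial tRNAs, 5 passed the filter on low counts, and neither edgeR nor DESeq2 called any, with 0 and 1 unadjusted p under 0.05. The libraries labelled cKO held 24.6, 33.5, 23.9 and 27.7 CPM in all and the control libraries 35.2, 26.4, 32.9 and 22.9 CPM. A tRNA is shorter than most library inserts, so these counts need not come from mature tRNA. Mt-Ta and mt-Tm did not pass the filter. Mt-Ta had 3, 1, 1 and 1 counts in the libraries labelled cKO and 10, 3, 3 and 5 in control libraries, too few for a comparison.

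Genes around the respiratory chain were read from lists. The 26 tested assembly factors of the other complexes, such as Surf1 and Sco1, held no call by edgeR or DESeq2, with 1 unadjusted p under 0.05 each, and had a median fold change of 0.01. None of the 19 tested genes of mitochondrial genome expression was called by edgeR or DESeq2, with 1 unadjusted p under 0.05 each and a median of -0.04. Tfam, which packages and transcribes the mitochondrial genome, averaged 76.6 ± 5.80 CPM in the libraries labelled cKO and 78.3 ± 1.58 CPM in control libraries (SD, n = 4 each). The 76 tested genes named as mitochondrial ribosomal proteins held no call by either tool. The 1 with an unadjusted p under 0.05, by both tools, was the pseudogene Mrpl48-ps. The list summed to 2342 ± 64.0 CPM in the libraries labelled cKO and 2346 ± 48.6 CPM in control libraries. For 13 genes of cytochrome c, coenzyme Q and carriers the count of calls was likewise 0 by both tools, with 1 unadjusted p under 0.05 by edgeR and 0 by DESeq2, and a median of 0.01.

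Of the 10 tested regulators of mitochondrial biogenesis, 2 rose and the other 8 were not called, beside 8.35% called higher over all genes tested. Both that rose are of the oestrogen-related receptor family of nuclear receptors, which bind promoters of oxidative genes. Esrrg had 48.6, 51.7, 40.3 and 46.1 CPM in the libraries labelled cKO and 30.6, 29.7, 31.4 and 29.9 CPM in control libraries. Every labelled-cKO library exceeded every control library, with a fold change of 0.62 (SE 0.07, edgeR Benjamini-Hochberg adjusted p = 3.1e-05). Esrrb averaged 5.45 ± 0.426 CPM in the libraries labelled cKO and 3.83 ± 0.519 CPM in control libraries (edgeR adjusted p = 0.0178), and this edgeR call was lost with male libraries alone (0.133), with sex as a covariate (0.108), without control replicate 3 (0.0563) and without control replicate 4 (0.0684).

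The third member of that family, Esrra, averaged 15.5 ± 1.59 CPM in the libraries labelled cKO and 16.3 ± 0.676 CPM in control libraries (SD, n = 4 each). Nrf1, the factor of the first promoter motif, averaged 82.1 ± 3.33 CPM in the libraries labelled cKO and 85.9 ± 3.02 CPM in control libraries, and Gabpa, of the second, 140.6 ± 8.98 CPM in the libraries labelled cKO and 142.0 ± 3.75 CPM in control libraries. The coactivator Ppargc1a averaged 6.15 ± 0.560 CPM in the libraries labelled cKO and 6.44 ± 0.827 CPM in control libraries. None of these 4 was called.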

How the data were processed

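RNA sequencing of 8 libraries was deposited as 1 table of 16096 genes. The submitters' processing notes name Novoalign 2.08.01 for alignment, the mm10 build and DESeq2; how reads were assigned to genes, with which annotation, and whether strand or multiply mapped reads were used are not stated there. The counts, as deposited, are raw whole numbers for each gene in each library. The FPKM values were computed by the authors, and the gene length they imply was 0.997 times (median over members) the summed exon length of GENCODE M21. For some members, such as Cox6b1, Ndufa4 and Ndufaf2, the implied length was well below the summed exon length. The FPKM values served to compare levels between genes, and such comparisons depend on these lengths. The authors' log2 ratio and their adjusted p score, on a scale not named in the file headers, were not used for any result.

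Members, complexes and lists were chosen with earlier results of these data known, and the pericyte and hypoxia lists were added after the fall of Cox4i2 had been seen. Counts were tested with edgeR 4.0.16 (R 4.3.3): TMM normalization, filterByExpr with a minimum count of 10, glmQLFit, glmQLFTest and Benjamini-Hochberg adjustment over the 15014 genes tested, for 4 labelled-cKO against 4 control libraries with no covariate. The filter left out 1082 genes, and normalization factors ran from 0.955 to 1.04. CPM were computed on normalized library sizes, and sums add the CPM of the members. Standard errors were derived from edgeR's F statistic and limits are at 95%. Permutation tests enumerated all 70 assignments of the 8 libraries. The fit was checked on simulated counts. Genes named by rule were Ezh2, every mitochondrial mRNA and rRNA, called members of each complex, the 4 largest increases and 4 largest decreases among members of at least 1 CPM, isoform families, the 5 highest and 3 lowest members by FPKM, and called genes of the other lists; further names were chosen after their values were seen, or given to describe a list. Coordinates are mm10. Coding sequences came from GENCODE M21 and promoters from RefSeq (GRCm38.p6). Alternatives were other normalizations, no filter, DESeq2 1.42.0, covariates, subsets of libraries and leaving out each library.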

Additional observations from a re-analysis of the deposited data

Results flagged for a closer look

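Single libraries stood apart in 2 of the 90 groups of 4 values examined, where chance alone gives about 1 in 20. Mt-Nd6 was at 13 CPM in labelled-cKO replicate 3, the lowest of its group, with the other 3 labelled-cKO libraries at 15.0 CPM each; the gap was 0.977 of the group's range, above Dixon's 95% critical value. Cox7a2 was at 69.3 CPM in control replicate 1, the lowest of its group, below 80.6 to 82.0 CPM in the other control libraries, with a gap of 0.889 of the range. The mt-Nd6 value of 13 CPM lay within the control range of 9.63 to 21.7 CPM. Neither gene was called under any alternative, including without labelled-cKO replicate 3 and without control replicate 1.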

How the results depend on the processing

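Over all genes, 1253 were called higher and 520 lower, beside 795 and 246 with sex as a covariate, 800 and 255 with the 6 male libraries alone, and 1179 and 497 with the replicate block. The number called lower was 273 with total counts as library sizes and 323 without the 2 libraries with lens crystallins. Leaving out 1 library at a time gave 1008 to 1233 higher and 329 to 667 lower, the lowest without control replicate 3. Same-numbered libraries deviated together with correlations of 0.223, -0.06, -0.011 and 0.187, and 2 of 4 correlated best with their own number. These correlations cannot settle whether the numbers pair the samples, and the main fit did not use the numbers. The nuclear members held 1 higher and 1 lower gene under every alternative, except 2 higher without labelled-cKO replicate 1; leaving out 1 library gave 1 to 2. Their median log2 fold change of 0.033 was -0.028 with sex as a covariate and -0.028 with male libraries alone, and the log2 ratio of their sums, 0.025, was -0.026 with male libraries alone; the cause was not tested. Of 630 values of named genes under the alternatives, 620 kept their side of the threshold, 4 passed it (Ezh2 in 3, Cox6a1 in 1) and 6 lost it (Esrrb in 4, Pdha1 in 2). No mitochondrial mRNA was called under any alternative. For mitochondrial mRNAs and rRNAs the spread among libraries limits what can be seen, and low counts limit Cox7a1, Cox7c and the mitochondrial tRNAs mt-Ta and mt-Tm, which had at most 10 counts per library.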

Other observations

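Glycolysis and the tricarboxylic acid cycle feed the respiratory chain. Of 17 glycolytic genes 1 rose in the libraries labelled cKO, Eno2, the neuronal enolase, with 23.2 ± 2.10 CPM in the libraries labelled cKO and 15.7 ± 1.67 CPM in control libraries (SD, n = 4 each; log2 fold change 0.57, SE 0.09, edgeR Benjamini-Hochberg adjusted p = 0.000462). None was called lower by edgeR. Over all genes tested, edgeR called 8.35% higher and 3.46% lower. Of the 17 fold changes 13 were negative and 4 positive, beside 47.6% positive over all genes. The median was -0.07 and 7 genes had an unadjusted p under 0.05 by edgeR. DESeq2 called 2, Eno2 higher and Pfkl lower. Pfkl had a DESeq2 fold change of -0.12 (DESeq2 adjusted p = 0.0418, edgeR adjusted p = 0.105), and its groups did not overlap. The summed level was 4278, 4384, 4462 and 4366 CPM in the libraries labelled cKO and 4818, 4494, 4774 and 4677 CPM in control libraries, and the groups did not overlap. Ldha, which turns pyruvate into lactate, averaged 721.8 ± 37.4 CPM in the libraries labelled cKO and 790.6 ± 44.8 CPM in control libraries (edgeR adjusted p = 0.189). Of 17 genes of pyruvate entry and the tricarboxylic acid cycle 1 rose, Pdha1, a subunit of pyruvate dehydrogenase on the X chromosome, with a fold change of 0.21 (edgeR adjusted p = 0.00914). That call was lost with sex as a covariate (0.067) and with male libraries alone (0.0662), with fold changes of 0.20 in both.

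Some genes outside the rule by name were looked at after their values had been seen. Ndufa4l2, a relative of Ndufa4, had 72.1, 56.0, 66.3 and 67.5 CPM in the libraries labelled cKO and 115.0, 88.5, 74.1 and 85.8 CPM in control libraries. The groups did not overlap, and the fold change was -0.47 (SE 0.11, edgeR Benjamini-Hochberg adjusted p = 0.0099). Slc2a1, the main glucose transporter of retina and endothelium, averaged 589.6 ± 23.0 CPM in the libraries labelled cKO and 692.7 ± 64.5 CPM in control libraries (SD, n = 4 each), a fold change of -0.23 (edgeR adjusted p = 0.0317). Cox4i2, Ndufa4l2 and Slc2a1 are all known as genes induced by low oxygen, so 21 other such genes were listed, of which 20 were in the table. None of these 20 was called by edgeR or DESeq2, beside 11.8% called by edgeR over all genes tested. Their median fold change was -0.05, and 7 of 20 were positive, beside 47.6% of all genes. An unadjusted p under 0.05 was found for 2 with edgeR and 3 with DESeq2. Those 3 were Egln1, P4ha1 and Kdm3a, all lower, with DESeq2 fold changes of -0.18, -0.12 and -0.11. The part of low oxygen in these values was not tested. Vegfa averaged 71.4 ± 6.39 CPM in the libraries labelled cKO and 76.6 ± 9.79 CPM in control libraries, and Pdk1 187.9 ± 9.86 CPM in the libraries labelled cKO and 189.0 ± 16.9 CPM in control libraries.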
